A study of Mus musculus with 6 samples.

Results

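The genes described are 10 that encode the proteins reading the mRNA cap and their regulators: Ncbp1, Ncbp2 and Ncbp3 of the nucleus, Eif4e, Eif4e2 and Eif4e3 of the cytoplasm, the eIF4E-binding proteins Eif4ebp1 and Eif4ebp2, and Larp1 with its paralog Larp1b. They were listed by name, with earlier results of these data known, out of 46983 genes in the deposited count tables. All 10 had enough reads to be tested among 12748 genes. Total RNA without its ribosomal RNA was sequenced. It came from naive CD4 T cells, which have not yet met antigen, sorted from mouse lymph nodes. There were 2 control libraries, from male mice of genotype Cmtr1 fl/fl CD4cre -, and 4 libraries labelled Cmtr1 cKO, from male mice of genotype Cmtr1 fl/fl CD4cre +. Both groups carry the floxed Cmtr1 alleles, and in the second the Cre recombinase is driven by Cd4 regulatory sequence, which is active from the thymus onward in T cells that later become CD4 or CD8 cells. The labels give neither ages nor whether each library came from a separate mouse, and the spread behind the p-values is that between libraries, which may be technical. Every mean ± SD is over 2 control or 4 Cmtr1 cKO libraries.

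The cap is a methylated guanosine joined to the first transcribed nucleotide of an mRNA, and CMTR1 adds a methyl group to the ribose of that nucleotide. In the nucleus NCBP1 and NCBP2 form the cap-binding complex, which accompanies the mRNA through splicing and export. In the cytoplasm eIF4E takes over the cap and recruits the eIF4G scaffold and the eIF4A helicase, and the 4E-BP proteins compete with eIF4G for eIF4E until the kinase complex mTORC1 phosphorylates them. LARP1, another mTORC1 substrate, binds the cap together with the pyrimidine tract that opens the TOP mRNAs of ribosomal proteins and translation factors. T cells raise translation strongly when they leave the naive state, and this machinery is part of that step.

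The libraries held 9513874 to 11949838 reads assigned to genes. Levels are given as CPM, reads relative to the library total after TMM scaling. Some technical values differ between libraries and are given here once. Reads outside exons are here the uniquely mapped reads that met no exon annotated on their own strand. Reads on the strand opposite an exon are thus among them. They made up 37.2% and 34.0% in the controls and 52.3%, 51.6%, 46.7% and 38.0% in Cmtr1 cKO 1 to 4 (exact two-sided permutation p = 0.133, with 0.0667 the smallest that 2 against 4 libraries allow). Reads on the gene's strand outnumbered those on the opposite strand 5.57 to 1 in Cmtr1 cKO 3 and 18.7 to 22.7 to 1 in the others. The share outside exons in Cmtr1 cKO 3 therefore includes more opposite-strand reads than in the other libraries. Cmtr1 itself had 11.2 and 11.4 CPM in control 1 and 2 and 16.0, 19.8, 14.6 and 7.57 CPM across Cmtr1 cKO 1 to 4. The removed exon is not named in the labels, so the count of Cmtr1 is no check of them, and directions are those of the libraries as labelled. All 9 markers of naive CD4 T cells were detected, with a summed level of 6005 to 6195 CPM in control 1 and 2 and 5567 to 6568 CPM in the Cmtr1 cKO libraries. Summed markers were 23.6 to 28.7 against 17.0 to 21.3 CPM for CD8 T cells, 2.14 to 2.54 against 0.846 to 1.67 CPM for NK cells, 3.98 to 15.7 against 2.49 to 4.13 CPM for myeloid cells and 355 to 364 against 272 to 303 CPM for B cells, whose list is mostly Ighm. Lower at an edgeR adjusted p under 0.05 among these markers were Ccr7 of the naive list (log2 fold change -0.36), Nkg7 of the NK list (-1.25), Ighm (-0.35) and, of the activated or memory list, Cd44 (-0.50). Those of activated or memory T cells summed to 187 to 198 against 191 to 220 CPM and those of regulatory T cells to 60.7 to 91.8 against 67.4 to 93.3 CPM. In bulk RNA, fewer cells of a type and less RNA per cell cannot be told apart, and the part of these values in the results below was not tested.

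None of the 10 genes passed the test between the genotypes. With edgeR's quasi-likelihood test, a gene was called when its p-value, adjusted by Benjamini-Hochberg over all 12748 genes, was under 0.05, and 0 of the 10 were called higher or lower. Of all tested genes 11.4% were called, 4.66% higher and 6.77% lower. At an unadjusted p under 0.05 the count was 1 of the 10, Eif4ebp2, against 30.9% of all genes. DESeq2 called 0 of the 10, against 11.2% of all genes. At an unadjusted p under 0.05 DESeq2 also had 0 of the 10. Its share of all genes at that level is not given here, so this count has no comparison. The log2 fold changes ran from -0.34 (Eif4ebp1) to 0.20 (Eif4e3), 5 above and 5 below 0, with a median of 0.019 beside 0 for all tested genes. The median absolute log2 fold change was 0.101 in the 10 genes and 0.201 in all tested genes. These medians were not matched for level, and log2 fold changes scatter more at low counts. Missing the threshold does not show that the levels were alike, but the 95% intervals bound the difference: for 9 of the 10 genes the interval lay within a 1.5-fold change in either direction, and for all 10 within a 2-fold change. Eif4ebp1, with 18 to 48 reads a library, was the exception at 1.5-fold.

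**Figure D1:**
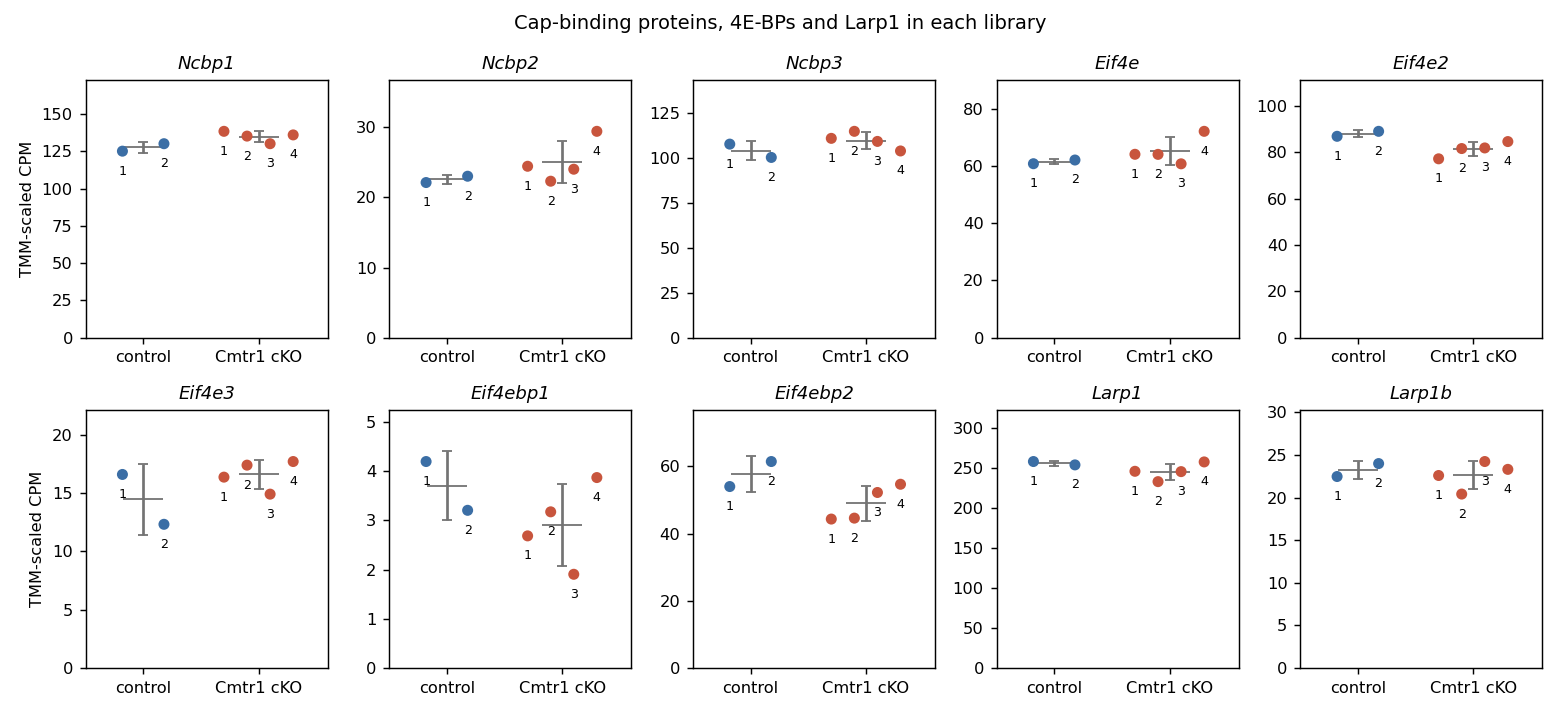
TMM-scaled CPM (linear axes from 0) of the 10 genes in the 2 control libraries (blue) and the 4 Cmtr1 cKO libraries (red), numbered by replicate, with the group mean and SD in grey. In 9 of the 10 panels the groups overlap, and Eif4e2 is the gene whose 4 Cmtr1 cKO libraries all lie below both controls.

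The nuclear cap binders read a little higher in most Cmtr1 cKO libraries, but none was called and each 95% interval included 0. Ncbp1, the large scaffold subunit of the cap-binding complex, had 125 and 130.1 CPM in control 1 and 2 and 138, 135, 130.1 and 136 CPM across Cmtr1 cKO 1 to 4. Its Cmtr1 cKO libraries lay at or just above the higher control. The log2 fold change was 0.08 ± 0.07 (SE), and the 95% interval ran from -0.063 to 0.22 (edgeR adjusted p = 0.43). Ncbp2, the small subunit that holds the cap itself, had 22.1 and 23.0 CPM in control 1 and 2 and 24.4, 22.3, 24.0 and 29.4 CPM across Cmtr1 cKO 1 to 4. Cmtr1 cKO 4 stood above the rest, and Cmtr1 cKO 2 lay between the controls. The log2 fold change of Ncbp2 was 0.15 ± 0.12 (SE, interval -0.115 to 0.42, edgeR adjusted p = 0.423), and 0.064 without Cmtr1 cKO 4. Ncbp3, a protein reported to pair with NCBP1 in an alternative cap-binding complex, had 108 and 100.1 CPM in control 1 and 2 and 104 (Cmtr1 cKO 4) to 115 (Cmtr1 cKO 2) CPM in the others, which overlap (log2 fold change 0.08 ± 0.07, SE, edgeR adjusted p = 0.497). Within each library, 5.66 and 5.65 reads of Ncbp1 fell for each read of Ncbp2 in the controls, and 5.66, 6.06, 5.42 and 4.62 in Cmtr1 cKO 1 to 4. The low ratio is that of Cmtr1 cKO 4, where Ncbp2 was high.

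Some reads at these nuclear genes came from the opposite strand. At Ncbp2 (chromosome 16, 31948513 to 31961781, plus strand, GRCm38) 5.68% of the exon bases overlap Senp5 on the other strand, and 6.13% of the reads in the controls and 8.33% in Cmtr1 cKO were on that strand. At Ncbp1 (chromosome 4, 46138613 to 46172403, plus strand) 4.70% of exon bases overlap Tstd2 or Xpa, and the opposite strand held 2.05% and 2.87% of reads. The counts used here are those of the gene's own strand, so these reads are not in the levels above. The other 8 genes had at most 1.04% of reads on the opposite strand in either group. In Cmtr1 cKO 3 the opposite strand held 34 reads at Ncbp1 (24 to 56 in the other libraries) and 28 at Ncbp2 (11 to 26). At the other 8 genes it held at most 7 in that library.

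The cytoplasmic cap binders did not share a direction, and none passed the threshold. Eif4e, the general cap-binding initiation factor, had 60.8 and 62.1 CPM in control 1 and 2 and 64.1, 64.0, 60.7 and 72.1 CPM across Cmtr1 cKO 1 to 4. The groups overlapped, with Cmtr1 cKO 4 highest and Cmtr1 cKO 3 level with control 1. The log2 fold change was 0.09 ± 0.08 (SE, interval -0.095 to 0.27, edgeR adjusted p = 0.505). Eif4e2, also called 4EHP, binds the cap without eIF4G and is known as a repressor of translation together with the GIGYF proteins. It had 86.9 and 89.1 CPM in control 1 and 2 and 77.2, 81.6, 81.9 and 84.6 CPM across Cmtr1 cKO 1 to 4, so that all 4 lay below both controls. Groups that do not overlap were found for 1 of the 10 genes, where 39% of all tested genes had them. The log2 fold change of Eif4e2 was -0.11 ± 0.07 (SE, interval -0.27 to 0.04, edgeR adjusted p = 0.294). Eif4e3, another form, less well understood, had 16.6 and 12.3 CPM in the controls, a wider spread than between the Cmtr1 cKO libraries (16.4, 17.4, 14.9 and 17.7 CPM). Its log2 fold change was 0.20 ± 0.14 (SE, edgeR adjusted p = 0.377), and was 0.44 without control 1 and 0.014 without control 2. Of its exon bases 14.8% are shared with Gm20696, a gene model on the same strand, and reads in such bases enter neither gene's count if both models were in the annotation used. The oocyte form Eif4e1b had 0 reads in all 6 libraries, which allows up to 3 counts in a library by counting error alone.

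The messages of the 4E-BPs, the brakes on eIF4E, were lower in most Cmtr1 cKO libraries without being called. Eif4ebp2, the more abundant of the pair in these cells, had 54.0 and 61.5 CPM in control 1 and 2 and 44.3, 44.6, 52.3 and 54.7 CPM across Cmtr1 cKO 1 to 4. Cmtr1 cKO 1 and 2 were low, Cmtr1 cKO 3 lay just below control 1 and Cmtr1 cKO 4 just above it, so the groups overlapped. The log2 fold change was -0.24 ± 0.10 (SE), with a 95% interval from -0.465 to -0.0087 and an edgeR adjusted p = 0.15. Without control 2, the higher of the controls, it was -0.13 (edgeR adjusted p = 0.645), and without control 1 it was -0.32 (edgeR adjusted p = 0.222). Eif4ebp2 was called lower without Cmtr1 cKO 4 (-0.30, edgeR adjusted p = 0.0207) and, by limma with library quality weights, which gave Cmtr1 cKO 4 a weight of 0.374 and the other libraries 1.12 to 1.35, at -0.27 (adjusted p = 0.047). Of all tested genes 30.8% were called without Cmtr1 cKO 4 and 24.9% with the quality weights. When the share of reads outside exons entered the fit as a covariate, its log2 fold change was 0.024 (edgeR adjusted p = 0.937), so that the direction turned. Over the 14 alternatives its adjusted p ran from 2.01e-04 to 0.937. Eif4ebp1 had 4.20 and 3.21 CPM in control 1 and 2 and 2.68, 3.17, 1.90 and 3.87 CPM across Cmtr1 cKO 1 to 4. At these low counts the groups overlapped and the interval was wide (log2 fold change -0.34 ± 0.29, SE, interval -0.97 to 0.29, edgeR adjusted p = 0.454), and the estimate was -0.12 without control 1, -0.502 without control 2, -0.18 without Cmtr1 cKO 3 and -0.51 without Cmtr1 cKO 4.

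**Figure D2:**
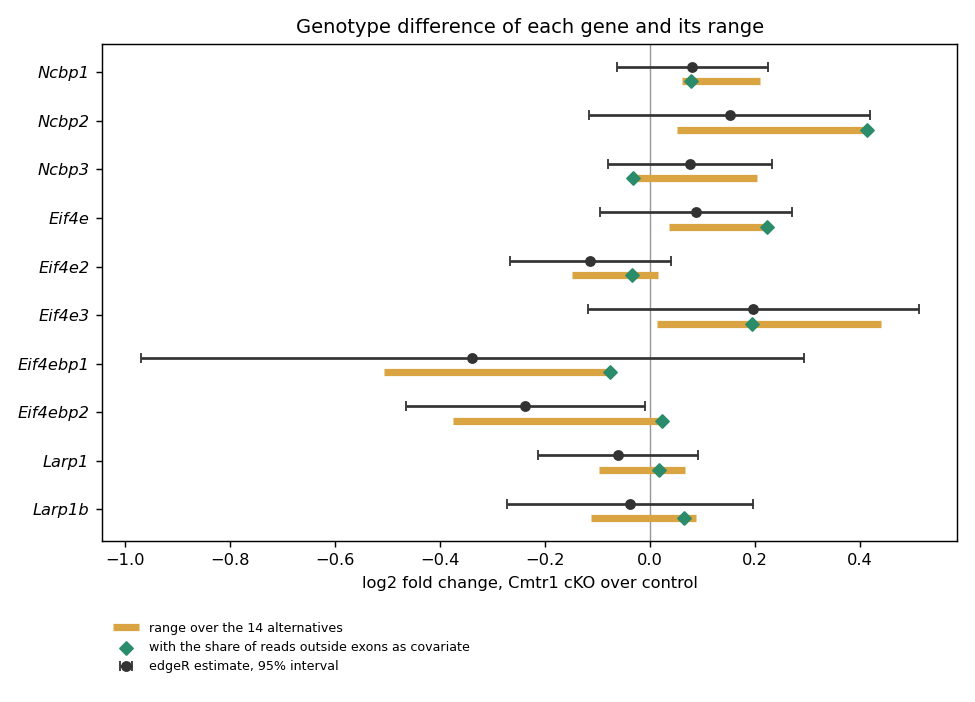
Log2 fold change of Cmtr1 cKO over control for each gene, as edgeR's estimate with its 95% interval (black), the range over the 14 alternative settings (yellow bar) and the value with the percentage of reads outside exons as covariate (green diamond). The interval of Eif4ebp2 ends just below 0, at -0.0087, while its covariate value is 0.024, and the widest interval is that of Eif4ebp1.

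Ratios between genes of the same library do not depend on how libraries are scaled. For each read of Eif4e there were 0.889 and 0.991 reads of Eif4ebp2 in the controls and 0.692, 0.697, 0.861 and 0.759 in Cmtr1 cKO 1 to 4. All 4 ratios were below both controls, with a difference of -0.325 on the log2 scale (means 0.940 ± 0.072 and 0.752 ± 0.078, SD). Eif4e2 showed the same order, with 1.43 and 1.44 reads for each read of Eif4e in the controls and 1.21, 1.27, 1.35 and 1.17 in Cmtr1 cKO 1 to 4. Larp1 had 4.24 and 4.08 reads for each read of Eif4e in the controls and 3.83, 3.63, 4.04 and 3.57 in Cmtr1 cKO 1 to 4. These 3 share Eif4e as the divisor and so are not independent of each other. For each of them the exact permutation test (two-sided, 15 arrangements) returned p = 0.133 (0.356 after Benjamini-Hochberg adjustment over the 8 ratios computed), where the smallest p the design allows is 0.0667. The other 5 ratios, among them Eif4ebp1 and Eif4e3 to Eif4e, Ncbp1 and Ncbp3 to Ncbp2 and Larp1 to Larp1b, overlapped between the groups (exact permutation p from 0.20 to 0.80). The ratios were chosen after the counts had been seen.

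Larp1 was the most highly counted of the 10 genes and differed little between the genotypes. It lies on chromosome 11 (58009064 to 58062034, plus strand, GRCm38) and had 258 and 254 CPM in control 1 and 2 and 245.5, 233, 245 and 257 CPM across Cmtr1 cKO 1 to 4. Of the 4, 3 lay below both controls and Cmtr1 cKO 4 lay between them. The log2 fold change was -0.06 ± 0.07 (SE), and the interval, from -0.21 to 0.09, corresponds to 0.863 to 1.07 times the control level (edgeR adjusted p = 0.586). Larp1b, a paralog whose function is less well known, had 22.5 and 24.0 CPM in control 1 and 2 and 20.4 (Cmtr1 cKO 2) to 24.2 (Cmtr1 cKO 3) CPM in the others, and its log2 fold change came to -0.04 ± 0.11 (SE, edgeR adjusted p = 0.837). There were 11.5 and 10.6 reads of Larp1 for each read of Larp1b in the controls, and 10.9, 11.4, 10.1 and 11.0 in Cmtr1 cKO 1 to 4, so the ratio overlapped between the groups.

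Because LARP1 recognises mRNAs that open with a cytosine followed by pyrimidines, the annotated starts of the genes were read from RefSeq (GRCm38.p6), where 7 of the 10 had an entry. In the windows below, 10 bases before the start and 10 from it on, the first 5 transcribed bases are in capitals. They are shown to compare the openings of the cap binders with those of 2 ribosomal protein genes, Rpl15 and Rpl35, chosen as the ribosomal protein genes with the longest pyrimidine run from the annotated start.
Larp1 (chr11:58009054-58009073, plus strand): aggcgcgccgGAGCCttctg
Larp1b (chr3:40950776-40950795, plus strand): aagaggtgggACCTCaggtt
Eif4e (chr3:138526181-138526200, plus strand): aaacagcagcGGAGGcggag
Eif4e2 (chr1:87213901-87213920, plus strand): cgcctcgccaGCCAAccgga
Eif4ebp2 (chr10:61452660-61452679, minus strand): cgcagcgggaCGACCgggcg
Ncbp1 (chr4:46138501-46138520, plus strand): gaagtctcctAAGTCgtcgg
Ncbp3 (chr11:73047857-73047876, plus strand): ggagtgagggGCGGGctttc
Rpl15 (chr14:18270977-18270996, minus strand): agaaagccttCTTCCtttcc
Rpl35 (chr2:39005122-39005141, minus strand): ccgccctttcCTCTTtctct

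A C at the first base with 4 more pyrimidines after it, read on the gene's strand, was found at 0 of the 10 annotated starts of these 7 genes (Eif4e has 2 and Eif4e2 has 3). It was found for 3.01% of all 27025 genes with an entry and for 13 of 60 ribosomal protein genes (21.7%). Ribosomal protein mRNAs are known as TOP mRNAs, so the annotated starts miss many of their tracts, and the absence of these letters says only that they are not at these positions.

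The order of abundance was set by level per kilobase of annotated exon. In the controls Ncbp1 and Larp1 were highest, at 37.7 ± 1.0 and 37.4 ± 0.4 CPM per kilobase (SD), and their library ranges overlapped. Eif4e2 (11.7 ± 0.2), Eif4e (10.2 ± 0.2), Eif4ebp2 (9.99 ± 0.91) and Ncbp2 (9.79 ± 0.27) followed, then Ncbp3 (6.02 ± 0.30), Eif4e3 (5.76 ± 1.20), Larp1b (2.78 ± 0.13) and Eif4ebp1 (1.69 ± 0.32), all in CPM per kilobase (SD). Steps at which all 6 libraries kept apart were Larp1 to Eif4e2, Ncbp2 to Ncbp3, Eif4e3 to Larp1b and Larp1b to Eif4ebp1. The neighbours in between overlapped over all 6 libraries. In the Cmtr1 cKO libraries Eif4e2, Eif4e and Ncbp2 had 10.85 ± 0.41, 10.9 ± 0.8 and 10.9 ± 1.3 CPM per kilobase (SD), and Eif4ebp2, at 8.47 ± 0.92 (SD), lay below Eif4e in all 4, while these 2 overlapped in the controls. Ncbp1 and Larp1 lay above 92.3% and 91.4% of tested genes on this scale, Eif4e above 64.6% and Eif4ebp1 above 18.2%. The lengths are unions of all annotated exons (17240 bases for Ncbp3), so a gene with long rare transcripts is understated.

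Each Cmtr1 cKO library was also set against the control mean. The medians of the 10 genes were 0.011, -0.062, 0.006 and 0.041 on the log2 scale in Cmtr1 cKO 1 to 4, and those of all tested genes -0.007, 0.001, 0.001 and -0.006. The range over the 4 libraries was 0.089 for Ncbp1, 0.13 for Eif4e2, 0.14 for Ncbp3, 0.15 for Larp1, 0.25 for Eif4e, Eif4e3 and Larp1b, 0.30 for Eif4ebp2, 0.40 for Ncbp2 and 0.96 for Eif4ebp1. Among the 4, Cmtr1 cKO 4 held the highest value of Ncbp2, Eif4e, Eif4e2, Eif4e3, Eif4ebp1, Eif4ebp2 and Larp1 and the lowest of Ncbp3. Likeness over the 6 libraries was measured as the root mean square difference of log2 CPM, each gene centred on its mean, among 8474 other genes of at least 10 CPM. The genes most like Eif4e were Pepd (0.023), Ube3b (0.027) and Ube2e3 (0.030), where the median over all genes was 0.152. Those most like Larp1 were Urb1 (0.009), Sh3glb1 (0.011) and Itgb7 (0.012), with a median of 0.129. All are nearly flat genes, with log2 fold changes from -0.072 to 0.11.

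The proteins that work with the cap binders were read from 4 lists of 51 genes, of which 49 were tested. In these lists 3 genes were called higher and 3 lower (6 of 49, or 12.2%, where 11.4% of all tested genes were called, 4.66% higher and 6.77% lower), so the share is near that of all genes, and the median log2 fold change was 0.053. Among the partners of eIF4E, 3 of 21 tested genes fell (14.3%, against 6.77% of all tested genes) and 0 rose, with a median of -0.092. Pabpc1, the poly(A)-binding protein that bridges to eIF4G, had 864 and 941 CPM in control 1 and 2 and 494, 493, 610.0 and 715 CPM across Cmtr1 cKO 1 to 4. All 4 were below both controls (log2 fold change -0.64 ± 0.14, SE, edgeR adjusted p = 0.0165). Eif4b, the cofactor of the eIF4A helicase, had 606 and 616 CPM in control 1 and 2 and 366, 382, 421 and 460.0 CPM across Cmtr1 cKO 1 to 4 (-0.59 ± 0.09, SE, edgeR adjusted p = 0.00326). Eif4a2, a paralog of the helicase, had 477 and 443 CPM in control 1 and 2 and 339, 337, 304 and 267 CPM across Cmtr1 cKO 1 to 4 (-0.56 ± 0.10, SE, edgeR adjusted p = 0.00552). The eIF4G scaffolds did not pass: Eif4g1 had a log2 fold change of -0.07, Eif4g2 of -0.13 and Eif4g3 of 0.12, and Eif4a1, the main helicase, had -0.06. The partners of Eif4e2 in repression had 0.30 (Gigyf1), 0.22 (Gigyf2) and 0.20 (Zfp598), and the eIF4E kinases Mknk1 and Mknk2 had 0.15 and -0.13, none of them called.

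**Figure D3:**
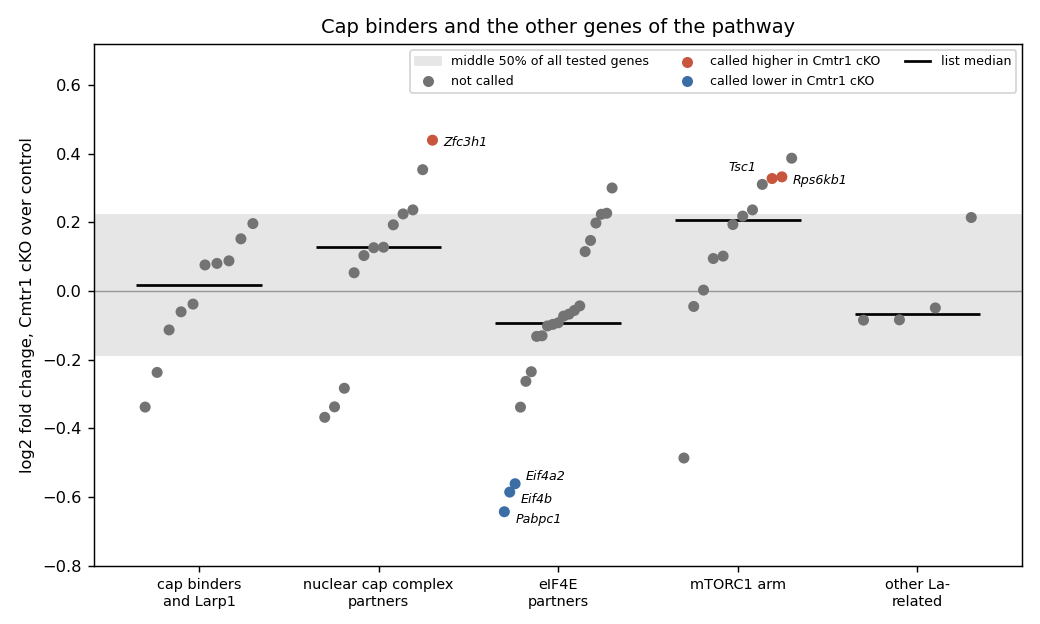
Log2 fold change of Cmtr1 cKO over control for the 10 cap binders and regulators and for each tested gene of the 4 lists of working partners, with list medians (black lines) and the middle 50% of all tested genes (grey band). None of the 10 is coloured, while Pabpc1, Eif4b and Eif4a2 lie lowest among the eIF4E partners at -0.64 to -0.56.

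Of the 12 nuclear partners of the cap-binding complex 1 rose (8.33%, against 4.66% of all tested genes) and 0 fell, with a median of 0.127. Zfc3h1, which links the complex to nuclear RNA decay, had 175.0 and 174.5 CPM in control 1 and 2 and 268, 259, 235 and 187 CPM across Cmtr1 cKO 1 to 4 (log2 fold change 0.44 ± 0.12, SE, edgeR adjusted p = 0.0443). Srrt, the ARS2 adaptor of the complex, and Zc3h18 had 0.35 and 0.24 and were not called (edgeR adjusted p = 0.0792 and 0.0591), and Phax, the export adaptor of small nuclear RNAs, had -0.37 (edgeR adjusted p = 0.0765). Of the 12 genes around mTORC1, the kinase complex that controls the 4E-BPs and LARP1, 2 rose (16.7%, against 4.66% of all tested genes) and 0 fell, with a median of 0.206. Lists this short give such shares from 1 or 2 genes. Tsc1, a subunit of the complex that holds mTORC1 back, had 66.7 and 64.8 CPM in control 1 and 2 and 84.9, 88.6, 78.0 and 78.6 CPM across Cmtr1 cKO 1 to 4 (0.33 ± 0.08, SE, edgeR adjusted p = 0.0254). Rps6kb1, the S6 kinase that mTORC1 activates, had 108 and 101 CPM in control 1 and 2 and 139, 137, 135 and 117 CPM across Cmtr1 cKO 1 to 4 (0.33 ± 0.08, SE, edgeR adjusted p = 0.03). Mtor and Rptor had 0.10 and 0.09 and were not called. Of the other La-related proteins 0 of 4 tested genes were called by edgeR (1 at an unadjusted p under 0.05). Larp7, which binds the 7SK RNA, had the largest difference, 0.21 (edgeR adjusted p = 0.117), and Larp6 had 0 reads in all libraries.

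Of the 6 partner genes called, 0 stayed called without control 1 or without control 2, 3 without Cmtr1 cKO 1 or without Cmtr1 cKO 2, 4 without Cmtr1 cKO 3 and 6 without Cmtr1 cKO 4. With a single control the calls ended while the log2 fold changes stayed near those of all 6 libraries: without control 1 and without control 2 they were -0.59 and -0.56 for Eif4b, -0.497 and -0.601 for Eif4a2, -0.69 and -0.57 for Pabpc1, 0.45 and 0.45 for Zfc3h1, 0.36 and 0.32 for Tsc1 and 0.395 and 0.30 for Rps6kb1. Several of these differences moved with the share of reads outside exons. Zfc3h1 was highest in Cmtr1 cKO 1 and 2, where that share was above 51%, and near the controls in Cmtr1 cKO 4, where it was 38.0%. Eif4ebp2 had the opposite order. With the share as a covariate the log2 fold change was 0.033 for Zfc3h1, 0.13 for Rps6kb1, 0.21 for Tsc1 and -0.21 for Pabpc1 and their calls ended (edgeR adjusted p = 0.858, 0.391, 0.193 and 0.0803), while Eif4b (-0.35) and Eif4a2 (-0.85) stayed called lower (edgeR adjusted p = 0.00189 and 2.08e-08). With the covariate Ncbp2 had 0.41 (edgeR adjusted p = 0.0828) and Eif4e 0.22 (edgeR adjusted p = 0.189). In that fit 0 of the 10 cap binders and regulators were called, against 5.22% of all tested genes. At an unadjusted p under 0.05 there were 2 of the 10, and the share of all genes at that level is not given here. The share differs between the genotypes in these libraries, so its part and that of the genotype cannot be told apart. In Cmtr1 cKO 3 the share also includes more opposite-strand reads.

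**Figure D4:**
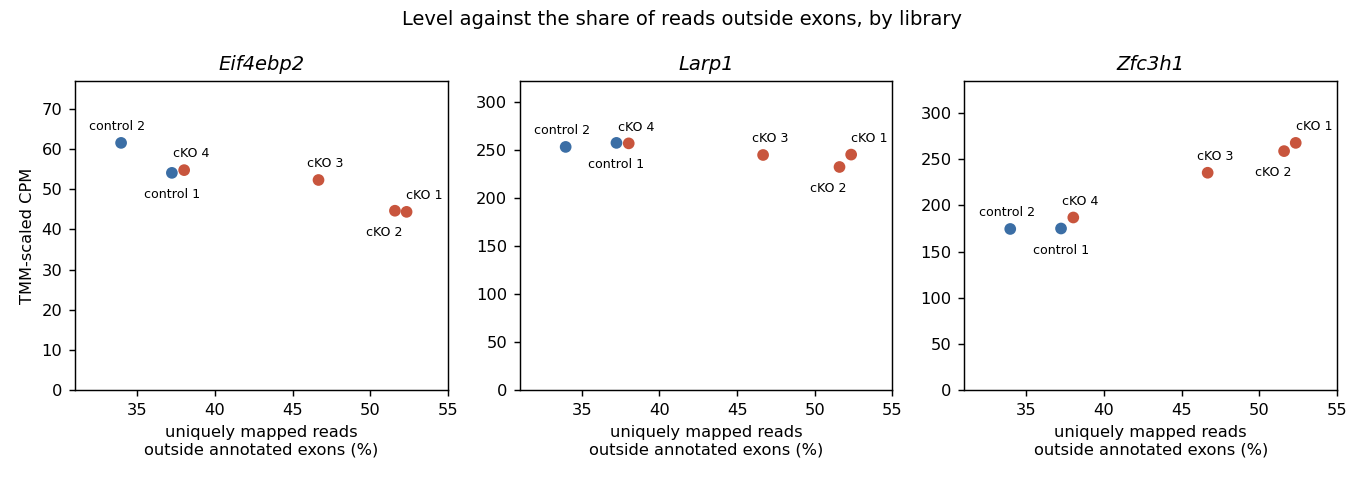
TMM-scaled CPM (linear axes from 0) of Eif4ebp2, Larp1 and Zfc3h1 against the percentage of uniquely mapped reads outside exons annotated on their own strand, 1 point a library, controls blue and Cmtr1 cKO red. Cmtr1 cKO 4, at 38.0%, lies beside the controls in all 3 panels, Eif4ebp2 is lowest and Zfc3h1 highest in Cmtr1 cKO 1 and 2, and Larp1 stays between 233 and 258 CPM.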

How the data were processed

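Counts of reads per gene were deposited by the authors as raw whole numbers in STAR's gene table layout, 1 file a library. Per the submitters' processing notes, the tools included STAR 2.5.2b and edgeR and the builds mm10 and GRCm38. No gene annotation for the counting is named there. The column of the gene's own strand was used. Rows that name no gene (52.1% to 62.0% of reads) were left out. Identifiers without version numbers were matched to GENCODE vM21 (46488 of 46983, 98.9%), and all 10 genes matched, 4 of them with another version number. STAR counts reads that map to 1 place, so reads shared with near-identical copies are missing.

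Genes were filtered with filterByExpr, scaled by TMM and tested for genotype with edgeR 4.0.16 (glmQLFit, robust) in R 4.3.3 on all 6 libraries, with Benjamini-Hochberg adjustment. SE is the log2 fold change divided by the square root of F, and intervals are 95%. Alternatives used DESeq2 1.42.0, limma 3.58.1, other scaling, filters, columns, a covariate, a replicate block and libraries left out. The code was tested on simulated data. The genes named outside the 10 are those called in each list, or the largest difference, and the nearest in likeness. Others, such as the scaffolds, kinases and adaptors, were chosen after their values were seen. The members and lists were chosen with earlier results of these data known.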

Additional observations from a re-analysis of the deposited data

How the results depend on the processing

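Over 14 alternatives, 0 of the 10 cap binders and regulators were called higher in any, and 1, Eif4ebp2, was called lower in 3: limma with quality weights (1), the replicate block (1) and without Cmtr1 cKO replicate 4 (1). In that order, these settings called 24.9%, 38% and 30.8% of all tested genes. All 3 give Cmtr1 cKO 4 a low weight or no part in the genotype difference, so they are not separate evidence. With a library left out the count called lower ran from 0 to 1. Some log2 fold changes turned. With library totals and no TMM, which moved the median of all genes by 0.127, Eif4e2 had 0.015, Larp1 0.067 and Larp1b 0.089 (-0.113, -0.06 and -0.038 relative to that median). With reads outside exons as the covariate Eif4ebp2 had 0.024, Larp1 0.017, Larp1b 0.065 and Ncbp3 -0.032. With a library left out Larp1b ran from -0.075 (without control replicate 1) to 0.022 (without control replicate 2) and had 0.011 without Cmtr1 cKO replicate 2.

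Of the 49 partner genes, 3 called higher became 9 without TMM, 9 with quality weights and 5 without a filter, and 3 called lower became 5 with quality weights, where 14.6% (no TMM), 24.9% (quality weights) and 9.11% (no filter) of all genes were called. With a library left out the counts ran from 0 to 11 higher and from 0 to 5 lower: 0 and 0 without control replicate 1 or control replicate 2, 0 higher without Cmtr1 cKO replicate 1 or 2, 1 higher without Cmtr1 cKO replicate 3, and 11 and 5 without Cmtr1 cKO replicate 4, where 30.8% of all genes were called. With a single control far fewer of all genes were called (255 and 193). The cause of the other shifts was not tested.

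Replicate numbers 1 and 2 occur in both groups, but no label says that they pair the libraries. Deviations from the group means correlated at 0.125 for number 1 and -0.131 for number 2 across 12748 genes. These correlations cannot decide pairing. The 2 controls deviate from their mean by equal and opposite amounts, and Cmtr1 cKO 1 and 2 had similar shares of reads outside exons (52.3% and 51.6%). The replicate block leaves 1 residual degree of freedom. Replicate numbers 3 and 4 occur only in Cmtr1 cKO, so its genotype difference rests on Cmtr1 cKO 1 and 2 against the controls. These 2 had the lowest Eif4ebp2 levels, 44.3 and 44.6 CPM. In that fit Eif4ebp2 had -0.37 (edgeR adjusted p = 2.01e-04). There 17 partner genes were higher and 8 lower, where 38% of all genes were called. Counts of 18 to 48 reads limit Eif4ebp1.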
